A study of Mus musculus with 9 samples.

Results

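Basement membranes are built from laminin trimers, collagen IV and the proteins that link them, and 10 mouse genes of that sheet are described here: the laminin chain genes Lama1, Lama5, Lamb1 and Lamc1, the collagen IV chain genes Col4a1 and Col4a2, the nidogens Nid1 and Nid2, perlecan (Hspg2) and Col18a1. They were taken by symbol, with every probe annotated to them in the deposited intensity table. Of the 10 genes, 9 had a probe and all 9 were tested, among 10251 genes tested in all. They have 11 of the 25697 probes: Col18a1 has 3 and each of the others 1. No probe in the table is annotated to Lama5, so it was not analysed here. The arrays were Illumina bead arrays of total RNA, 3 each of mouse ES cells, of definitive endoderm made from ES cells in culture (DE) and of anterior foregut endoderm made the same way (AFE). Each array is named by its group and the replicate number in the labels.

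Per the labels, ES cells carried no reporter and were of the 129P2/OlaHsd background, DE cells came from the R1 line, a cross of 129X1/SvJ with 129S1/SV-+p+Tyr- cKitlSl-J/+, and AFE cells were of 129X1/SvJ, so strain and line cannot be told apart from group. All cells were purified by flow cytometry. Neither the gate nor the day of collection is stated in the labels. The same protocol stands on every sample: lines were kept on mouse embryonic fibroblasts with LIF, freed of the fibroblasts, and plated on 0.1% gelatin. From day 2 the cells received 5 µM IDE-1, an inducer of definitive endoderm, with 5 nM of the GSK3 inhibitor GSKiXV on the first day of it. On day 6 the cells were moved to plates coated with medium conditioned by 804G cells, a rat line whose medium is used as a laminin-rich coating, and received 500 nM A83-01 and 100 nM LDN193189, inhibitors of TGF-beta family and BMP receptors. The coating is protein from outside the cells, and the arrays measured the cells' RNA.

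Laminins are trimers of an alpha, a beta and a gamma chain. The trimer of the Lama1, Lamb1 and Lamc1 products is the laminin of the earliest basement membranes of the mouse embryo, and Lama5 encodes the alpha chain that is widespread in later epithelia. Collagen IV, of which Col4a1 and Col4a2 encode the chains found in almost all basement membranes, forms a second network. Nidogens bind both networks, perlecan is a large heparan sulfate proteoglycan, and Col18a1 encodes collagen XVIII, whose end fragment is endostatin. Parietal endoderm, which lines the yolk cavity of the mouse embryo, lays down the thick Reichert's membrane and makes large amounts of these chains.

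Values are log2 levels after background correction and quantile normalization, so a difference of 1 is 2-fold. Levels of different probes cannot be set against each other. A change is the difference between the mean log2 levels of 2 groups, given ± its SE from a limma model of all 9 arrays (n = 3 arrays a group). "Rose" and "fell" are used where limma's adjusted p, corrected over all genes tested, was under 0.05. Nothing in the labels says that the replicates of a group came from separate cultures, so p-values measure the spread between these arrays, which may be technical. In bulk samples, fewer cells of a type and less RNA per cell cannot be told apart.

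DE 3 stood apart from the other DE arrays: over all genes its levels correlated with those of DE 1 and DE 2 at r = 0.934 and 0.931, against 0.995 between DE 1 and DE 2. Results are therefore given without it as well where that changes a call or moves a value or a count by over 1.5 times. The arrays detected 12628 to 14352 probes each. Of the markers of the labelled cell types that could be tested, 9 of 9 definitive endoderm markers rose and 8 of 8 ES cell markers fell in DE against ES. Of all genes tested, 22.2% rose and 21.7% fell there. Of 8 anterior foregut markers listed, 5 had a probe and 3 could be tested. Isl1, detected on all arrays, rose by 3.05 ± 0.31 (limma adjusted p = 2.55e-04) from DE to AFE. Pax1 and Eya1 rose too, but were detected on the AFE arrays alone and so could be tested only through AFE. Cer1, a definitive endoderm marker, was likewise detected on the DE arrays alone. On the linear scale the summed level of the definitive endoderm markers was 48930 on DE 1 and 45892 on DE 2, 10785 on DE 3 and 797 to 978 on the ES arrays. ES 3 was the only array on the second slide, so leaving it out also leaves out that slide.

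Lama1, Lamb1, Lamc1, Col4a1 and Col4a2 had their highest mean level in DE. Against ES, 6 of the 9 genes rose and 0 fell, where 22.2% of all genes tested rose and 21.7% fell. Those that rose were Lama1, Lamb1, Lamc1, Col4a1, Col4a2 and Nid1. At an unadjusted p under 0.05 in limma the count that was lower was also 0. The median change of the 9 genes was 2.06, against 0.0076 over all genes tested. In AFE against DE, 5 of the 9 fell (Lama1, Lamb1, Lamc1, Col4a1 and Nid1) and 1 rose (Col18a1), where 10.1% of all genes tested fell and 12.9% rose. Here the median change was -1.74, against 0.068 over all genes tested. In AFE against ES, 4 rose (Lama1, Lamb1, Col4a1 and Col4a2) and 2 fell (Nid1 and Hspg2), beside 22.8% of all genes tested that rose and 19.3% that fell. The 3 comparisons share their arrays, so they are not independent of each other. By the moderated F-test of limma over the 3 groups, 7 of the 9 genes differed among groups, beside 55.7% of all genes tested. Nid2 (adjusted p = 0.0918) and Col18a1 (adjusted p = 0.0531) did not pass.

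Without DE 3, 6 of the 9 rose and 2 fell (Hspg2 and Col18a1) in DE against ES, beside 25.3% and 23.6% of all genes tested. From DE to AFE, 6 then fell and 1 rose, beside 14.5% and 17.1%. In AFE against ES, 5 rose and 3 fell, beside 27.3% and 23.0%. That last comparison takes no mean over DE arrays, but DE 3 enters the spread and the normalization that the 3 groups share.

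**Figure D1:**
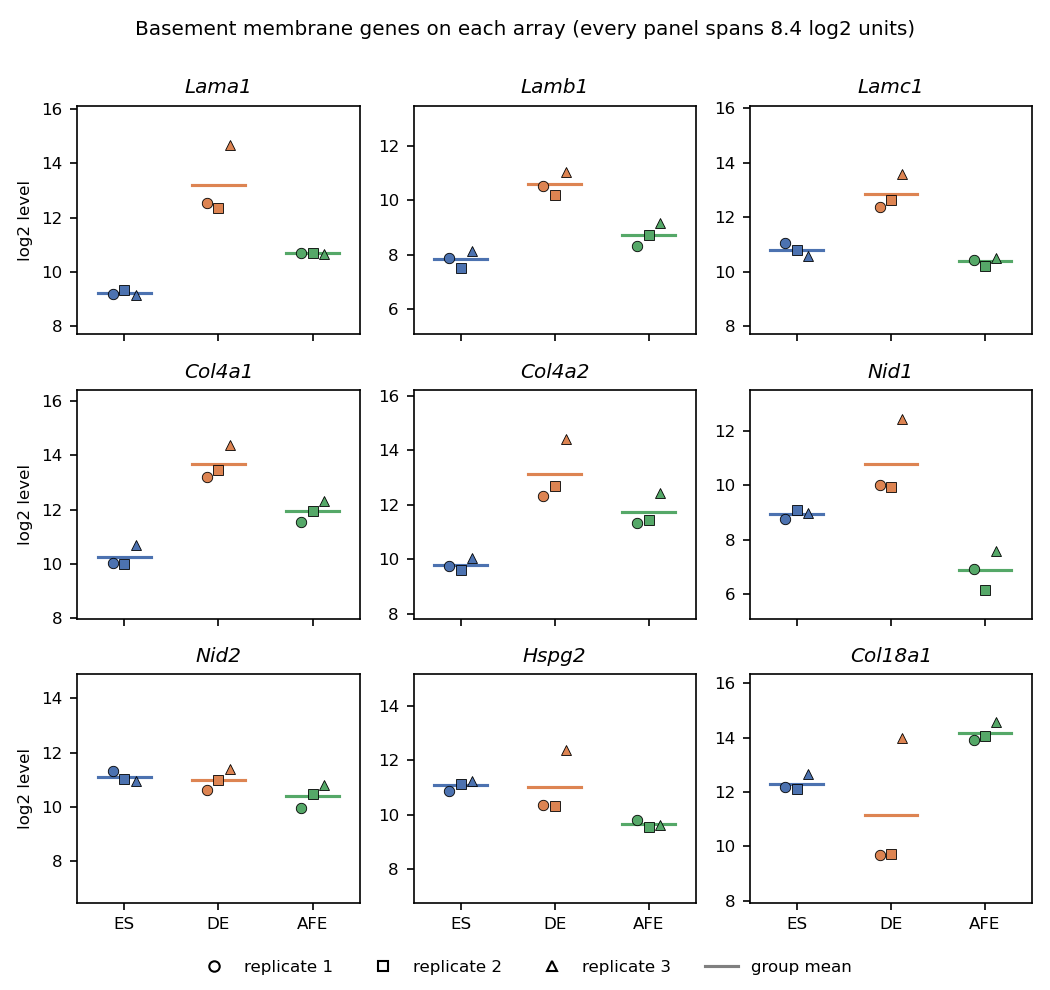
Log2 level of each of the 9 genes on each array, with ES, DE and AFE on the horizontal axis, a marker shape for each replicate and a line for the group mean. Lama1, Lamb1, Lamc1, Col4a1, Col4a2 and Nid1 lie above ES on all 3 DE arrays, and Col18a1 has its lowest levels on DE 1 and DE 2. On these normalized levels DE 3 is the highest DE array for all 9 genes.

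The laminin alpha 1 gene Lama1 had the largest change of the 9 genes in DE against ES. Its deposited intensity, before any normalization, was 731, 740 and 553 on the ES arrays, 7278, 7294 and 20988 on the DE arrays and 1359, 1488 and 1288 on the AFE arrays. As log2 levels these were 9.20, 9.33 and 9.14 in ES, 12.53, 12.35 and 14.68 in DE and 10.69, 10.69 and 10.67 in AFE. The order was DE over AFE over ES with no overlap between any groups, and DE 3 lay 2.24 above the mean of DE 1 and 2. Lama1 rose by 3.96 ± 0.51 (15.6-fold, adjusted p = 2.80e-04) in DE against ES, and by 3.22 ± 0.17 (9.33-fold) without DE 3 (limma). From DE to AFE it fell by 2.50 ± 0.51 (5.67-fold, limma adjusted p = 0.00792), and by 1.76 ± 0.17 (3.38-fold) without DE 3. In AFE against ES it rose by 1.46 ± 0.51 (limma adjusted p = 0.0430). That last call held in 10 of 21 alternatives. In limma fits it was lost on leaving out ES 1, ES 2 or ES 3 (adjusted p = 0.101, 0.0883 and 0.110) or AFE 1, AFE 2 or AFE 3 (0.0906, 0.0921 and 0.0920), while without DE 3 the adjusted p was 4.79e-05.

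The partner chain genes Lamb1 and Lamc1 also rose in DE, by less. Lamb1, the beta 1 chain, had levels of 7.87, 7.50 and 8.15 in ES, 10.53, 10.18 and 11.05 in DE and 8.32, 8.70 and 9.15 in AFE. Its 3 groups did not overlap, and DE 3 was 0.70 above the mean of the other DE arrays. The change was 2.75 ± 0.29 (6.71-fold, limma adjusted p = 9.46e-05) in DE against ES and -1.86 ± 0.29 (limma adjusted p = 0.00250) in AFE against DE. In AFE against ES it was 0.89 ± 0.29 (limma adjusted p = 0.0350). This call was lost in limma fits without ES 1 (adjusted p = 0.0831), ES 2 (0.124), AFE 2 (0.0760) or AFE 3 (0.110).

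Lamc1, the gamma 1 chain shared by most laminins, had levels of 11.06, 10.80 and 10.56 in ES, 12.38, 12.63 and 13.59 in DE and 10.41, 10.20 and 10.51 in AFE. Every AFE array lay below every ES array, and every DE array lay above both groups. It rose by 2.06 ± 0.30 (4.17-fold, limma adjusted p = 5.55e-04) in DE and fell by 2.49 ± 0.30 (5.63-fold, limma adjusted p = 5.97e-04) from DE to AFE. The difference of -0.44 ± 0.30 between AFE and ES did not pass (limma adjusted p = 0.271). Its SE takes in the spread of the DE arrays, and without DE 3 the difference was -0.44 ± 0.18 (limma adjusted p = 0.0762). Whether Lama1, Lamb1 and Lamc1 differ in their change from ES to AFE was not tested.

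Col4a1 and Col4a2 rose in DE and stayed above ES in AFE. Their products combine in the trimer of Col4a1 and Col4a2 chains that makes up most collagen IV. Col4a1 had levels of 10.02, 10.01 and 10.71 in ES, 13.19, 13.44 and 14.38 in DE and 11.54, 11.94 and 12.32 in AFE. The order was DE over AFE over ES, with no overlap between groups. Col4a1 rose by 3.42 ± 0.35 (10.7-fold, limma adjusted p = 6.91e-05) in DE and fell by 1.74 ± 0.35 (3.33-fold, limma adjusted p = 0.00734) from DE to AFE. AFE stayed 1.69 ± 0.35 (3.22-fold, limma adjusted p = 0.00393) above ES. With the authors' processed values the AFE against DE call (limma adjusted p = 0.0902) and the AFE against ES call (0.151) were lost.

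Col4a2 had levels of 9.76, 9.61 and 10.03 in ES, 12.33, 12.67 and 14.42 in DE and 11.31, 11.44 and 12.43 in AFE. ES was below both other groups, while AFE 3 lay above DE 1. Col4a2 rose by 3.34 ± 0.51 (10.2-fold, limma adjusted p = 7.04e-04) in DE against ES, and by 2.71 ± 0.32 (6.53-fold) without DE 3. The difference of -1.41 ± 0.51 from DE to AFE did not pass (limma adjusted p = 0.0731). It passed in limma fits without DE 1 (-1.83, adjusted p = 0.0454) or AFE 3 (-1.76, adjusted p = 0.0488) and under median scaling (adjusted p = 0.0293), and was -0.77 ± 0.32 without DE 3 (adjusted p = 0.102). AFE stayed 1.93 ± 0.51 (3.81-fold, limma adjusted p = 0.0129) above ES, a call lost with the authors' processed values (adjusted p = 0.0552).

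Col4a1 and Col4a2 are neighbours read in opposite directions, and their promoter windows are shown because the pair moved together over the arrays (Pearson r = 0.977 over 9 arrays, as a description). The windows are 300 bases around each start site, most of them before it, from RefSeq on the GRCm38.p6 build. The Col4a2 window is chr8:11312555-11312854 on the plus strand and the Col4a1 window chr8:11312777-11313076 on the minus strand. Capitals mark the 78 bases that both windows hold, each read on its own strand from 5′ to 3′.
Col4a2: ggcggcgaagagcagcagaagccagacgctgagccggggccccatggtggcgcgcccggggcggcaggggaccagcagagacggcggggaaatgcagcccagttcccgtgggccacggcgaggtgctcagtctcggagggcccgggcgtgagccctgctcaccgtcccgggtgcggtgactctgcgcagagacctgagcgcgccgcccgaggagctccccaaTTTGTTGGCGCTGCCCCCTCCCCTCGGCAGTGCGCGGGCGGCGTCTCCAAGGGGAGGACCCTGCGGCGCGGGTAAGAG
Col4a1: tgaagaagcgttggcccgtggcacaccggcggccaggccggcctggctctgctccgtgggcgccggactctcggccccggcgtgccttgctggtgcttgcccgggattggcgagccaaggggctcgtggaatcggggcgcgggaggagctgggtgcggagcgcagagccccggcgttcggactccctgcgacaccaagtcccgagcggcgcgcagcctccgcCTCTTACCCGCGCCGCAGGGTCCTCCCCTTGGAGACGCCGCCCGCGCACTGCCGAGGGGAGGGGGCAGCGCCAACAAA
The start sites lie 21 bases apart, at 11312805 for Col4a2 and 11312826 for Col4a1, and the shared stretch runs from 11312777 to 11312854.

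Of the 10 genes, 7 have a window in that table, with 8 windows in all, since Col18a1 has 2. Among the chain genes that moved together Lamb1 is the other one with a window, chr12:31265043-31265342 on the plus strand. Capitals in it mark the matches to the motifs searched.
Lamb1: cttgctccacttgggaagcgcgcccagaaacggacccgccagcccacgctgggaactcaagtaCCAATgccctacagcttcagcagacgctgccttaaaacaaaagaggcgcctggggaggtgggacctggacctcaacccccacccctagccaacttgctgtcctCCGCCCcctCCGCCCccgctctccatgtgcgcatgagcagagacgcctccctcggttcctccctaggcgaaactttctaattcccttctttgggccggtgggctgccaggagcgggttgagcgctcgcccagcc
On both strands, GGGCGG (the GC box) matched 2 times in the Lamb1 window, 1 time in that of Col4a1 and 3 times in that of Col4a2, and 35.7% of all 32851 windows hold it. CCAAT matched 1 time in each of these 3 windows, and 37.4% of all windows hold it. GATAA, the core read by GATA factors, and ATTGT, a core read by Sox factors, matched 0 times in all 8 windows, with 25.4% and 31.0% of all windows holding them. A match is a stretch of letters, not a measured site, and no match says only that these letters are not in the window.

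Of the nidogens, which tie the laminin network to collagen IV, Nid1 passed the test in all 3 comparisons and Nid2 in none. Nid1 had deposited intensities of 563, 631 and 498 in ES, 1455, 1631 and 4224 in DE and 183, 141 and 217 in AFE. Its log2 levels were 8.76, 9.07 and 8.97 in ES, 10.00, 9.94 and 12.45 in DE and 6.91, 6.15 and 7.58 in AFE. The order was DE over ES over AFE with no overlap, and DE 3 stood 2.48 above the mean of DE 1 and 2.

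Nid1 rose by 1.86 ± 0.62 (3.64-fold, limma adjusted p = 0.0347) in DE against ES, and by 1.04 ± 0.35 (2.06-fold, adjusted p = 0.0332) without DE 3. That call held in 13 of 21 alternatives and was lost in limma fits without ES 1 (adjusted p = 0.0932), ES 2 (0.0745), ES 3 (0.0806) or AFE 1 (0.0502). Nid1 fell by 3.92 ± 0.62 (15.1-fold, limma adjusted p = 0.00252) from DE to AFE, and fell by 3.11 ± 0.35 (8.61-fold) without DE 3. In AFE it also fell below ES, by 2.05 ± 0.62 (4.15-fold, limma adjusted p = 0.0240). That call was lost without ES 1, ES 2 or ES 3 (limma adjusted p = 0.0544, 0.0674 and 0.0633) and without AFE 1 or AFE 2 (0.0576 and 0.0844).

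Nid2 had levels of 11.32, 11.02 and 10.96 in ES, 10.62, 11.00 and 11.39 in DE and 9.95, 10.49 and 10.79 in AFE. DE overlapped both other groups, and every AFE array lay below every ES array. None of its differences passed in limma: -0.09 ± 0.27 in DE against ES (adjusted p = 0.806), -0.59 ± 0.27 in AFE against DE (adjusted p = 0.141) and -0.69 ± 0.27 in AFE against ES (adjusted p = 0.0648). In AFE against ES the difference passed in limma fits without DE 3 (-0.69, adjusted p = 0.0360) or AFE 3 (-0.88, adjusted p = 0.0347). In DE against ES its sign turned without ES 1 (0.016) or DE 1 (0.10).

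Perlecan (Hspg2) had levels of 10.87, 11.12 and 11.26 in ES, 10.37, 10.34 and 12.37 in DE and 9.79, 9.55 and 9.62 in AFE. DE 1 and DE 2 lay below every ES array and DE 3 above every one, while AFE was below both groups. Hspg2 fell by 1.43 ± 0.47 (2.69-fold, limma adjusted p = 0.0333) in AFE against ES. This call held in 12 of 21 alternatives, and leaving out ES 1, ES 2 or ES 3 (limma adjusted p = 0.0632, 0.0828 and 0.0923) or AFE 1, AFE 2 or AFE 3 (0.0649, 0.0834 and 0.0792) ended it. The difference of DE from ES did not pass with all arrays (-0.06 ± 0.47, limma adjusted p = 0.941) and was -0.73 ± 0.18 (adjusted p = 0.00928) without DE 3, while its sign turned without ES 3 (0.032), DE 1 (0.28) or DE 2 (0.30). In AFE against DE the difference was -1.37 ± 0.47 (limma adjusted p = 0.0617). It was -0.71 ± 0.18 (adjusted p = 0.0172) without DE 3 and -1.74 (adjusted p = 0.0471) without DE 2.

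Col18a1 was lowest on 2 of the 3 DE arrays and highest in AFE. Its brightest probe had deposited intensities of 5415, 5021 and 6457 in ES, 1193, 1417 and 12169 in DE and 13113, 15582 and 19786 in AFE. As log2 levels these were 12.17, 12.12 and 12.66 in ES, 9.69, 9.73 and 14.00 in DE and 13.93, 14.07 and 14.57 in AFE. DE 1 and DE 2 lay below all other arrays and DE 3 lay within the AFE range, so that DE overlapped AFE through that array alone.

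Col18a1 rose by 3.05 ± 0.96 (8.28-fold, limma adjusted p = 0.0464) from DE to AFE, and by 4.49 ± 0.25 (22.4-fold, adjusted p = 3.64e-06) without DE 3. The call made with all arrays held in 7 of 21 alternatives, among them the fit without DE 3. It was lost without ES 1, ES 2 or ES 3 (limma adjusted p = 0.0702, 0.0705 and 0.0687), without DE 1 or DE 2 (2.33 and 2.37, adjusted p = 0.147 and 0.150) and without AFE 1, AFE 2 or AFE 3 (0.0909, 0.102 and 0.111). In DE against ES the difference was -1.18 ± 0.96 (limma adjusted p = 0.349), and -2.61 ± 0.25 (6.12-fold lower, adjusted p = 3.34e-05) without DE 3. In AFE against ES it was 1.87 ± 0.96 (limma adjusted p = 0.142) with all arrays and 1.87 ± 0.22 (adjusted p = 1.21e-04) without DE 3.

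On the other probes of Col18a1, DE 1 and DE 2 were again the lowest arrays. The second brightest had levels of 8.67, 8.76 and 8.41 in ES, 6.15, 6.38 and 10.49 in DE and 10.30, 9.77 and 10.14 in AFE, so that DE 3 lay above every AFE array. The dimmest had levels of 5.90, 5.71 and 5.37 in ES, 4.70, 4.52 and 6.30 in DE and 6.56, 5.89 and 6.34 in AFE. It was not detected on DE 1 and DE 2, and AFE overlapped ES. DE 3 exceeded the mean of DE 1 and 2 by 4.30, 4.22 and 1.69 on the 3 probes from brightest to dimmest. In a limma fit over all detected probes the change from DE to AFE was 3.05 (adjusted p = 0.0455), 2.40 (adjusted p = 0.0929) and 1.09 (adjusted p = 0.0966), so only the brightest passed.

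**Figure D2:**
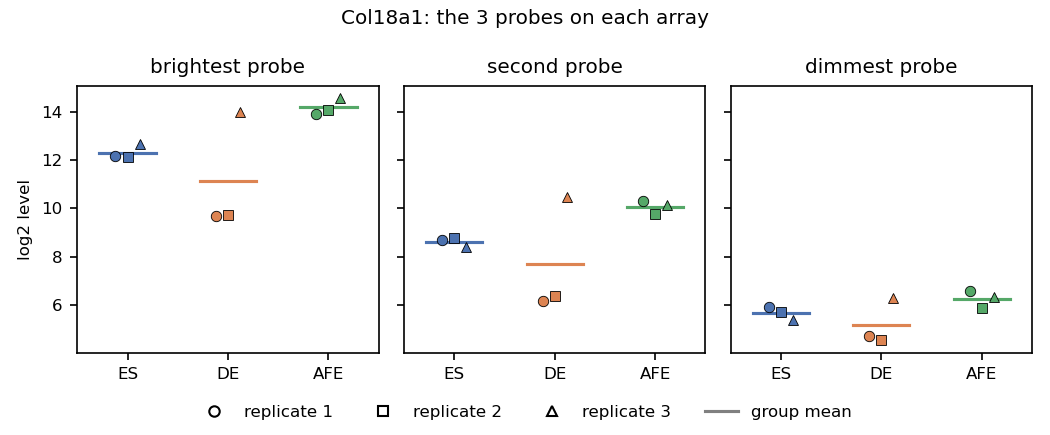
Log2 level of the 3 Col18a1 probes on each array, with groups on the horizontal axis, a marker shape per replicate and a line for the group mean. On all 3 probes DE 1 and DE 2 lie below every other array and DE 3 lies near the AFE arrays.

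**Figure D3:**
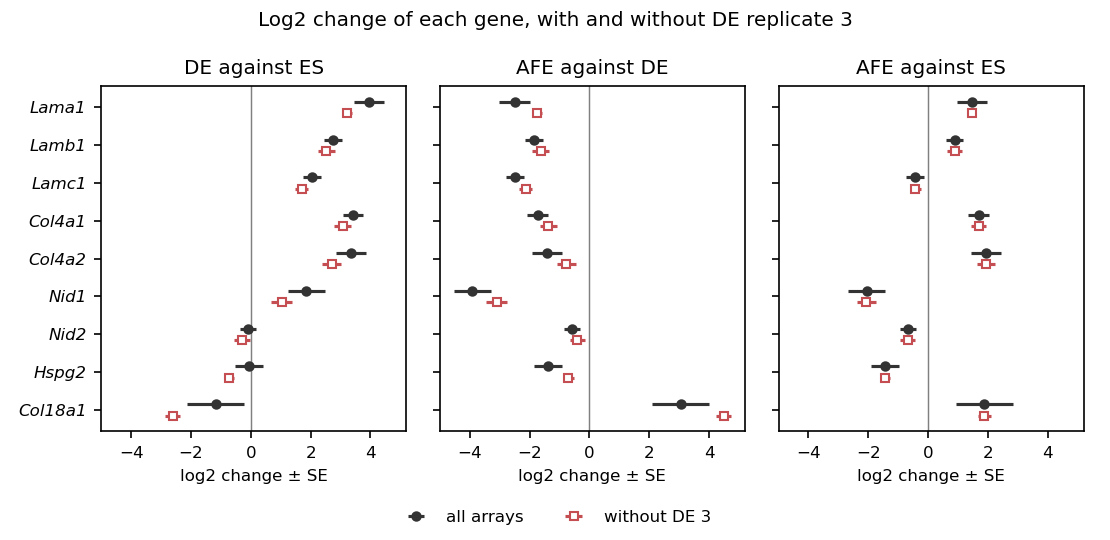
Log2 change ± SE of each gene in the 3 comparisons, with all arrays (filled circles) and without DE 3 (open squares). Leaving out DE 3 moves the DE values of Lama1, Col4a2, Nid1, Hspg2 and Col18a1 most and shortens the error bars of Lama1, Hspg2 and Col18a1 in all 3 panels.

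Array by array, Lama1, Lamb1, Lamc1, Col4a1, Col4a2 and Nid1, the 6 genes that rose, lay above every ES array on all 3 DE arrays. Nid2, Hspg2 and Col18a1 did so on DE 3 alone. The share of all genes tested that lie above or below every ES array on a single DE array is not given here. Below every ES array were Nid2, Hspg2 and Col18a1 on DE 1, Hspg2 and Col18a1 on DE 2 and 0 genes on DE 3. DE 1 and DE 2 differed from each other by 0.039 to 0.38. DE 3 exceeded their mean by 0.58 (Nid2) to 4.30 (Col18a1), and 7 of 9 genes were at least 2-fold higher, where 7.53% of all genes tested were. None was at least 2-fold lower, where 8.12% of all genes tested were. The genes under 2-fold were Nid2 and Lamb1, while Col4a1 (1.06) and Lamc1 (1.09) were just over it. For Nid2 and Lamb1 the place of DE 3 depended on the normalization. Deposited intensities on DE 1, DE 2 and DE 3 were 2190, 3200 and 2058 for Nid2 and 2068, 1890 and 1661 for Lamb1. Scaling the arrays by their medians in place of quantiles left 5 of 9 at least 2-fold higher. Replicate 3 differed from the mean of replicates 1 and 2 by -0.37 to 0.70 in ES and by -0.049 to 1.06 in AFE, where 2 genes were at least 2-fold higher. With 1 array against 2 there is no replicate check, and this comparison has no test.

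**Figure D4:**
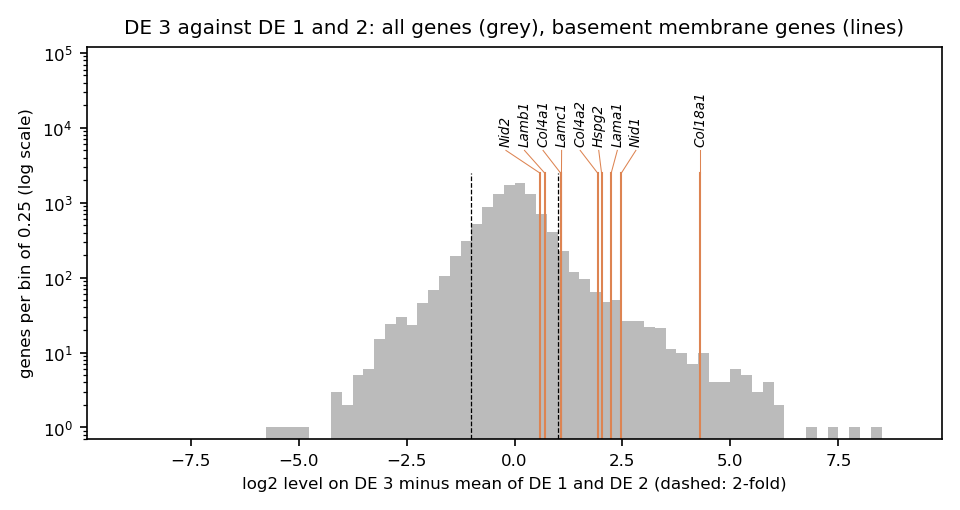
Log2 level on DE 3 minus the mean of DE 1 and 2, for all genes tested (grey, genes per bin of 0.25 on a log scale) and the 9 genes (lines), with 2-fold differences dashed. All 9 lines lie right of 0, 7 of them past 2-fold, and Col18a1 lies farthest out at 4.30.

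Markers of other cell types also differed between arrays or groups, not all in the direction of the 9 genes. Of 9 endothelial markers tested, 8 were at least 2-fold higher on DE 3 than on DE 1 and 2, beside 7.53% of all genes tested. The summed level of these 9 markers was 53478 on DE 3, against 2721 and 2565 on DE 1 and DE 2, 2592 to 3786 on the ES arrays and 1387 to 2291 on the AFE arrays. Emcn, an endothelial surface sialomucin, had levels of 4.99, 4.72 and 13.23 on the DE arrays, and Sox18, an endothelial transcription factor, 4.40, 4.79 and 12.47. Emcn, Sox18, Pecam1 and Eng were each detected on 1 of 3 DE arrays. In DE against ES 0 of the 9 rose and 0 fell by limma, beside 22.2% and 21.7% of all genes tested, with 0 also at an unadjusted p under 0.05. Without DE 3, 0 rose and 5 fell, beside 25.3% and 23.6%. The receptor Kdr was not higher on DE 3, with 5.12, 4.86 and 4.79. Other lists differed on DE 3 as well. Of 12 parietal endoderm markers, 8 were at least 2-fold higher and 0 lower than on DE 1 and 2. Of 9 definitive endoderm markers, 0 were at least 2-fold higher and 7 lower. Of all genes tested, 7.53% were higher and 8.12% lower by that much. Endothelial cells make basement membrane chains too, and the part of any of these cell types in the levels on DE 3 was not tested.

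Parietal endoderm markers, which include the endoderm factors Gata6 and Sox7, rose in DE against ES in 10 of 12 tested, beside 22.2% of all genes tested. Without DE 3, 8 of 12 rose, beside 25.3%. From DE to AFE 10 of 12 fell, beside 10.1% of all genes tested. Gata4, of this list, was detected on the DE arrays alone and so could be tested only through DE. The summed level of the parietal endoderm markers was 23820 to 49525 in DE, 6161 to 7688 in ES and 6620 to 11719 in AFE. Leaving out Sparc, the sums were 15218 to 26942 in DE, 1802 to 2013 in ES and 3896 to 5650 in AFE. Sox7 had levels of 8.75, 9.14 and 11.93 on the DE arrays and was not detected on any AFE array, which puts DE at least 24.5-fold above AFE (limma adjusted p = 8.12e-04), or at least 12.3-fold from DE 1 and DE 2 alone. Visceral endoderm markers rose in 7 of 9 in DE against ES, beside 22.2% of all genes tested. Their summed levels were 16561 to 24222 in DE, 4117 to 9354 in ES and 1871 to 2351 in AFE. Most of the ES sum was Rhox5, which did not pass in DE against ES with all arrays (-1.32 ± 0.53, limma adjusted p = 0.0704). Its levels were 13.04, 13.11 and 11.89 in ES and 10.87, 10.57 and 12.64 in DE. Without DE 3, 7 of the 9 visceral endoderm markers rose and 1 fell, beside 25.3% and 23.6% of all genes tested. Leaving out Rhox5, the sums were 15041 to 17854 in DE, 333 to 536 in ES and 1333 to 1896 in AFE. Afp, Ttr, Apoa1 and Apoa4 were not detected on any ES array, and Apoa4, detected on the DE arrays alone, could be tested only through DE. Several genes of these lists are shared by extraembryonic and definitive endoderm. Fibroblast markers, a check on feeder cells, fell in DE against ES in 7 of 11, beside 21.7% of all genes tested. They summed to 27178 to 58310 in ES, 5033 to 5292 in DE and 9102 to 34949 in AFE. Most of that sum was Acta2, a smooth muscle actin, and without it the sums were 6050 to 16221 in ES, 987 to 2012 in DE and 1353 to 3155 in AFE. Their part in the basement membrane levels was not tested.

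Lama1, Lamb1, Col4a1 and Col4a2 ran in parallel over the arrays, with Pearson r from 0.932 to 0.977 among their 6 pairs. Lamc1 had r = 0.908 with Nid1 and r = 0.860 with Lama1, and Col18a1 had r between -0.440 and 0.061 with the other 8 genes. These are descriptions over 9 arrays that share 3 groups and one normalization. The genes most like Lama1 were Psg23 (r = 0.992), Vav3, Gdpd5, Ramp2 and the parathyroid hormone receptor Pth1r (r = 0.978). Those most like Lamc1 were Nostrin (r = 0.995), Klb, Sox7, Ehd1 and Pla2g12b (r = 0.980). For Col4a1 they were Tax1bp3 (r = 0.986), Spon2, Rab11a, P4hb and the endocytic adaptor Dab2 (r = 0.981). P4hb encodes a subunit of the prolyl 4-hydroxylase that modifies collagen. Nid2 had weaker matches, from Garre1 (r = 0.940) to Atp1b1 (r = 0.898).

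Of 14 other basement membrane genes tested, 4 rose and 1 fell in DE against ES, with a median of 0.55, beside the 22.2% and 21.7% of all genes tested. Without DE 3, 4 rose and 2 fell, beside 25.3% and 23.6%. Agrin (Agrn), a heparan sulfate proteoglycan, rose by 1.74 ± 0.18 (limma adjusted p = 7.21e-05). Lamb3, a beta chain of epithelial laminin, rose by 2.14 ± 0.54 (limma adjusted p = 0.0105), and Sparc, a collagen-binding matrix protein, by 1.27 ± 0.42 (limma adjusted p = 0.0329). The fibulin Fbln2 fell by 2.37 ± 0.65 (limma adjusted p = 0.0151) and by a further 2.94 ± 0.65 (limma adjusted p = 0.0113) from DE to AFE. Without DE 3 it fell by 1.47 and then fell by 3.86, and its first call was lost without ES 3 (limma adjusted p = 0.0610). The Sparc call was lost without ES 1, ES 2, ES 3 or DE 3 (limma adjusted p = 0.0929, 0.0872, 0.0570 and 0.0625). In AFE against DE 4 of the 14 rose and 3 fell, beside 12.9% and 10.1% of all genes tested.

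Of the other collagen IV chains, Col4a5 and Col4a6 were highest in AFE. Col4a6 was not detected on any ES or DE array and had levels of 6.43, 6.62 and 5.97 in AFE, at least 2.33-fold above DE (limma adjusted p = 3.71e-04). Col4a6 could be tested only because the AFE arrays detected it, so this p-value adds no support of its own. Col4a5, whose product pairs with that of Col4a6, had levels of 6.05, 6.17 and 6.35 in ES, 6.37, 6.88 and 6.93 in DE and 7.89, 8.18 and 8.26 in AFE. All AFE arrays lay above all others, and it rose by 1.92 ± 0.21 (limma adjusted p = 9.76e-05) in AFE against ES. Fras1, which encodes an epithelial basement membrane protein, rose by 1.80 ± 0.28 (limma adjusted p = 0.00250) from DE to AFE. Tinagl1, a matrix protein, fell by 2.32 ± 0.57 (limma adjusted p = 0.0180) from DE to AFE, and fell by 1.56 without DE 3. That call was lost without AFE 1 (limma adjusted p = 0.0633).

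Of 15 matrix receptors, 0 rose and 6 fell in DE against ES by limma, beside 22.2% and 21.7% of all genes tested. At an unadjusted p under 0.05 in limma 0 were higher too, and the median change of the receptors was -0.64. The integrin beta 4 gene Itgb4, whose product binds laminin in hemidesmosomes, had levels of 8.42, 8.52 and 8.36 in ES, 6.49, 6.33 and 6.42 in DE and 8.67, 9.39 and 8.83 in AFE. Its DE arrays lay below all others. It fell by 2.02 ± 0.21 (limma adjusted p = 7.05e-05) in DE and rose by 2.56 ± 0.21 (limma adjusted p = 6.65e-05) from DE to AFE. In AFE against DE 6 of 15 receptors rose and 1 fell, beside 12.9% and 10.1% of all genes tested. The laminin receptor subunit Itga3 rose by 2.17 ± 0.44 (limma adjusted p = 0.00818) and the syndecan Sdc1 by 2.10 ± 0.32 (limma adjusted p = 0.00193). Itga5, whose product binds fibronectin, fell by 2.03 ± 0.29 (limma adjusted p = 0.00140). Itga9 differed most between the DE arrays, at 6.04, 6.10 and 8.53.

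Genes for collagen folding, secretion and cross-linking rose in DE against ES in 10 of 17 and fell in 3, beside 22.2% and 21.7% of all genes tested. Their median change was 1.14, or 0.66 without DE 3. The collagen prolyl hydroxylases P3h2 and P4ha1 rose by 2.57 ± 0.48 (limma adjusted p = 0.00230) and 2.31 ± 0.45 (limma adjusted p = 0.00298). Of the cross-linking enzymes, Lox was not detected on any DE array and was at least 92.8-fold lower than in ES (limma adjusted p = 1.22e-06). Lox could be tested only because the ES arrays detected it, so this p-value adds no support of its own. Loxl1 fell by 4.46 ± 0.65 (limma adjusted p = 5.51e-04), or by 5.37 without DE 3. Loxl2 did not pass (0.25 ± 0.58, limma adjusted p = 0.755), with levels of 7.42, 7.77 and 7.84 in ES and 7.27, 7.02 and 9.50 in DE. DE 1 and DE 2 thus lay below every ES array for Loxl2, and DE 3 above every one. Pxdn, a peroxidase that cross-links collagen IV, rose by 1.99 ± 0.17 (limma adjusted p = 2.32e-05). Lox enzymes are also made by fibroblasts. Between DE and AFE 6 of 17 fell and 1 rose, beside 10.1% and 12.9% of all genes tested. Without DE 3, 5 fell and 3 rose, beside 14.5% and 17.1%. Plod1, a lysyl hydroxylase, fell by 1.48 ± 0.32 (limma adjusted p = 0.0101) and Serpinh1, the collagen chaperone, by 0.97 ± 0.20 (limma adjusted p = 0.00828).

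Of 11 remodelling genes, 1 rose and 2 fell in DE against ES, beside 22.2% and 21.7% of all genes tested, with a median of -0.43. Without DE 3, 2 rose and 5 fell, beside 25.3% and 23.6%, with a median of -1.45. The membrane protease Mmp14 rose by 1.57 ± 0.29 (limma adjusted p = 0.00210), while of the protease inhibitors Timp1 fell by 4.78 ± 0.50 (limma adjusted p = 8.55e-05) and Timp2 fell by 1.54 ± 0.37 (limma adjusted p = 0.00838). Without DE 3 Timp1 fell by 5.44. The inhibitor Timp3 did not pass (-1.80 ± 0.71, limma adjusted p = 0.0639). From DE to AFE 1 rose (Sulf1, a heparan sulfate 6-O-endosulfatase, by 1.15 ± 0.28, limma adjusted p = 0.0164) and 1 fell (the gelatinase Mmp9, by 2.23 ± 0.53, limma adjusted p = 0.0152). Of all genes tested, 12.9% rose and 10.1% fell there. Without DE 3 the counts were 2 and 1, beside 17.1% and 14.5%. Mmp9 fell by 2.96 without DE 3, and its call was lost without DE 1 or DE 2 (limma adjusted p = 0.0542 and 0.0589). That of Sulf1 was lost without AFE 1 or AFE 2 (limma adjusted p = 0.0598 and 0.0588). On DE 3, 6 of the 11 were at least 2-fold higher and 1 lower than on DE 1 and 2, beside 7.53% and 8.12% of all genes tested. Plau, the urokinase gene, had levels of 5.07, 5.09 and 10.14 on the DE arrays, and Mmp2, which cleaves collagen IV, 8.53, 8.87 and 11.74. Both were high on DE 3.

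**Figure D5:**
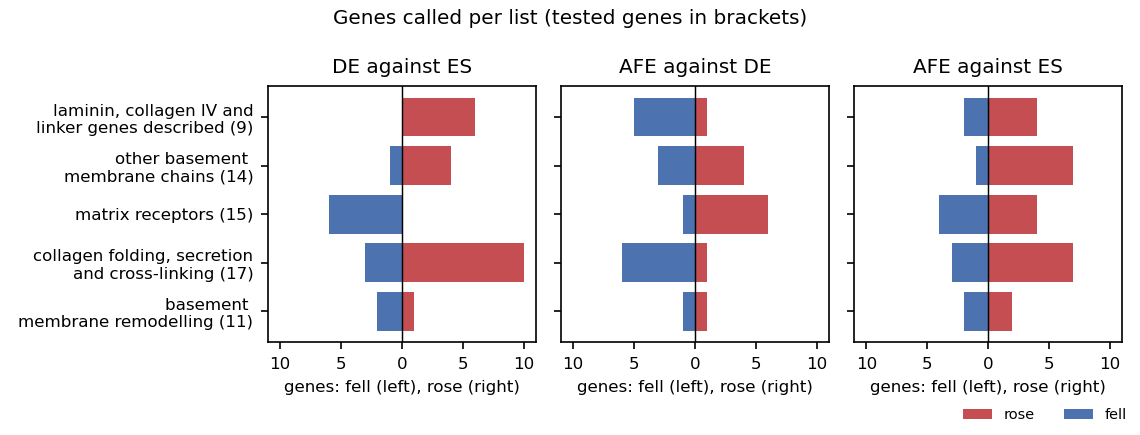
Number of genes that fell (left of 0) and rose (right of 0) in each comparison, for the 9 genes described and 4 lists of related genes, with the number tested in brackets. In DE against ES 6 of 9 described genes and 10 of 17 collagen folding genes rose, while 0 of 15 matrix receptors rose and 6 fell. Of all genes tested, 22.2% rose and 21.7% fell in that comparison.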

How the data were processed

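Total RNA of 9 samples was measured on mouse Illumina bead arrays, per the labels. Per the file headers, the deposited intensity is a probe's bead signal, not normalized between arrays. A deposited detection p-value, read as a comparison with negative controls, stands beside it. The authors also deposited a table of log2 values, whose steps are not given in the sources used here. In that table the column of ES 3 ranks the probes as the ES 2 intensities do and the column of ES 2 matches no intensity column (its closest is DE 2, Spearman rho = 0.926), so it served only as an alternative.

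Intensities were corrected with neqc of limma 3.58.1 (R 4.3.3): normexp from the detection p-values, offset 16, quantile normalization, log2. Of 25697 probes, 23978 have 1 gene symbol in the platform table, 0 several and 1719 none. Kept were 15090 probes detected (p under 0.05) on at least 3 arrays. A gene detected on the 3 arrays of 1 group alone passed through that group, so its higher level there is partly built in. Such genes include Gata4, Cer1 and Apoa4 (DE), Pax1, Eya1 and Col4a6 (AFE) and Lox (ES). The brightest probe stood for a gene, which left 10251 genes. The linear model of limma (lmFit, eBayes) took the 3 groups over all 9 arrays, with Benjamini-Hochberg adjustment over all genes. It was tested on simulated arrays, whose results are not given here. "At least" folds use, for a gene not detected on any array of a group, the higher of its own level and the lowest level of a detected probe. Summed levels are sums of levels on the linear scale. The number of arrays limits the precision.

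The genes, lists and tests were chosen with earlier results of these data known. Named are all 10 genes, the largest called changes of each list (up to 4 per comparison), those farthest apart on DE 3, and the 5 genes most like Lama1, Lamc1, Col4a1 and Nid2. Pecam1, Eng, Pxdn, Loxl2, Timp3 and the markers Afp, Ttr, Apoa1, Apoa4, Rhox5 and Acta2 were named after their values were seen. Samples with the same replicate number did not deviate together: all correlations of deviations from the group means lay between -0.143 and 0.075, so the numbers were not taken as pairs. Alternatives were another background correction or normalization, the processed table, other filters, the mean of a gene's probes, robust moderation with an intensity trend, the replicate block, only the 6 arrays compared and leaving out each array. Figures were drawn with matplotlib 3.10.9.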

Additional observations from a re-analysis of the deposited data

How the results depend on the processing

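Every alternative kept the direction of the changes of Lama1, Lamb1, Lamc1, Col4a1, Col4a2 and Nid1 in the 3 comparisons, and all 21 kept the calls of Lama1, Lamb1, Lamc1, Col4a1 and Col4a2 in DE against ES. Without background correction 0 of the 9 genes rose from DE to AFE, and 2 rose and 1 fell in AFE against ES. Without a filter these counts were 0, 2 and 0. Median scaling called 8 lower from DE to AFE. The mean of a gene's probes, and the fit of only the 6 arrays compared, gave 0 higher from DE to AFE. The authors' processed table called 663 genes in DE against ES, 892 from DE to AFE, 1334 in AFE against ES and 1819 by the F-test, with 0 of the 9 higher from DE to AFE and 0 higher and 0 lower in AFE against ES. Without its ES 2 column, an alternative chosen after seeing the data, 0 rose from DE to AFE and 1 fell in AFE against ES.

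Leaving out each array gave 1435 to 3235 genes called in AFE against DE, 0 to 1 of the 9 higher there, 2 to 5 higher and 0 to 3 lower in AFE against ES, and 0 to 2 lower in DE against ES. In DE against ES, where neither passed with all arrays, Hspg2 turned to 0.049 under median scaling, 0.32 in the processed table, 0.038 in it without its ES 2 column, 0.032 without ES 3, 0.28 without DE 1 and 0.30 without DE 2, and ranged from -0.73 to 0.30 over the arrays left out. Nid2 turned to 0.20 in the processed table, 0.016 without ES 1 and 0.10 without DE 1, and ranged from -0.29 to 0.10. The causes were not tested.

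With the replicate number as a block, 4288 genes were called in DE against ES, 2097 from DE to AFE and 4161 in AFE against ES. Of the 9 genes 6 then rose in the first and 6 fell in the second, where Col4a2 passed (limma adjusted p = 0.0226). The balance of Lama1 and Lama5 was planned and not run, since no probe in the table is annotated to Lama5. With 3 arrays a group, a change within the spread of DE 3 and the other DE arrays cannot be shown.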
